A study of Rattus norvegicus with 60 samples.

Results

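The miRs rno-miR-204, rno-miR-211 and rno-miR-184 were taken by their names on the array, without the strands marked with an asterisk, which gave 3 of the 350 rat miRs measured. The arrays compared whole retinas of male Long Evan's hooded rats weighing 250 to 300 g. In the IR group, 1 eye was cannulated and held at an intraocular pressure of 110 mmHg for 60 min, and the tissue was taken at the end of ischemia (0 h) or after reperfusion for 2 h, 24 h, 48 h or 7d. Sham control rats had the same anesthesia and cannulation without the rise in pressure, and were collected at the same 5 times. Each of the 10 groups held 6 rats with 1 array each, 60 arrays in all.

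MiRs are short RNAs that repress mRNAs, mostly by pairing through their seed, bases 2 to 8 from the 5′ end. In the eye, miR-204 and miR-211 are abundant in the retinal pigment epithelium, the cell layer behind the photoreceptors, and act there in keeping the epithelium differentiated. MiR-204 is also made in the neural retina, lens and ciliary body. MiR-184 is best known from the corneal and lens epithelium and is found in the pigment epithelium as well. The labels give whole retina and do not say how much pigment epithelium stayed with it, and no mRNA of pigment epithelium genes was measured on these arrays, so the cell type that gave the 3 signals was not tested. In whole retina, fewer cells of a type and less RNA per cell cannot be told apart.

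The 3 mature sequences are shown because the members differ in their seeds and because 2 of them are nearly alike. They are from RefSeq on the build GRCr8, 5′ to 3′, with the seed in capitals.
rno-miR-204: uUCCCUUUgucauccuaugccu
rno-miR-211: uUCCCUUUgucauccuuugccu
rno-miR-184: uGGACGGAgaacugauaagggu

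Rno-miR-204 and rno-miR-211 had the same seed and were identical at 21 of 22 bases. The remaining base was A17U, counted from the 5′ end, with the base of rno-miR-204 first. No other miR among the 724 mature sequences of that table carried this seed, and none shared the seed of rno-miR-184. Rno-miR-204 lay at chr1:229743493-229743514 on the plus strand, inside the span of Trpm3, and rno-miR-211 lay at chr1:127189353-127189374 on the plus strand, inside the span of Trpm1. Both host genes code for cation channels of the TRPM family. The table gives neither exons nor the strand of the host genes, so exonic or intronic position was not determined. Rno-miR-184 lay at chr8:99222991-99223012 on the minus strand, and no annotated gene spanned its hairpin.

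On the array, rno-miR-204 had 2 probes of 20 and 19 bases, rno-miR-211 had 3 probes of 19 to 21 bases and rno-miR-184 had 2 probes of 22 and 21 bases. With the older build rn4 used for the array design, the longest of them were placed on chromosome 1 from 226013028 to 226013047, on chromosome 1 from 118642425 to 118642445 and on chromosome 8 from 94692582 to 94692603. With a single base between the miRs, how much of each signal came from the other miR cannot be told apart on these arrays. No spot of the 3 miRs was saturated on any array.

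Signals are given as log2 of the total signal of a miR, a fluorescence intensity after background subtraction, scaled to a common brightness per array and raised to a floor of 2.63. An array detected 59 to 232 miRs. A miR was tested where some group detected it on each of its 6 arrays, which 159 of the 350 did, all 3 members among them. Before scaling, the IR arrays were dimmer than the sham control arrays at 24 h (log2 brightness 7.40 to 8.83 against 9.92 to 10.71) and at 7d (7.27 to 8.54 against 10.46 to 11.15). At 0 h and 48 h the ranges overlapped, with a lower median in IR (9.15 against 10.41 and 9.27 against 10.49). At 2 h the medians were 9.90 in IR and 9.89 in sham control. A dim array has a higher detection limit, taken here as its lowest positive signal among detected miRs. The retinal neuron and photoreceptor miRs rno-miR-124, rno-miR-9, rno-miR-183, rno-miR-96 and rno-miR-182 were detected on all 60 arrays, and the log2 of their summed signal stayed between 14.43 and 14.95. The sum is mainly that of rno-miR-124, rno-miR-183 and rno-miR-96 (means 13.57, 12.96 and 12.36). Singly, each miR had a wider range than the sum, that of rno-miR-9 being 5.99 to 7.86. All 7 miRs listed for surface epithelium (rno-miR-205, rno-miR-203, rno-miR-200a, rno-miR-200b, rno-miR-200c, rno-miR-141 and rno-miR-429) were detected on no array. Of the 8 epithelial miRs in a second list, rno-miR-31 alone was detected, on 25 arrays, and none of the 8 met the rule for testing.

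The 2 seed sharing miRs were steady in all groups. Rno-miR-204 was detected on 60 of 60 arrays and ranged from 9.72 to 10.84, a 2.17-fold span. Rno-miR-211 was also detected on 60 of 60 arrays and ranged from 8.36 to 9.36, a 2.00-fold span. Rno-miR-184 behaved otherwise, with detection on 33 of 60 arrays (12 of 30 IR and 21 of 30 sham control arrays). It ranged from the floor of 2.63 up to 10.87, a signal 302.5-fold the floor. Signals at the floor were not detected, so the true span was not measured. Levels of different miRs are not compared with each other, since each probe has its own brightness.

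**Figure D1:**
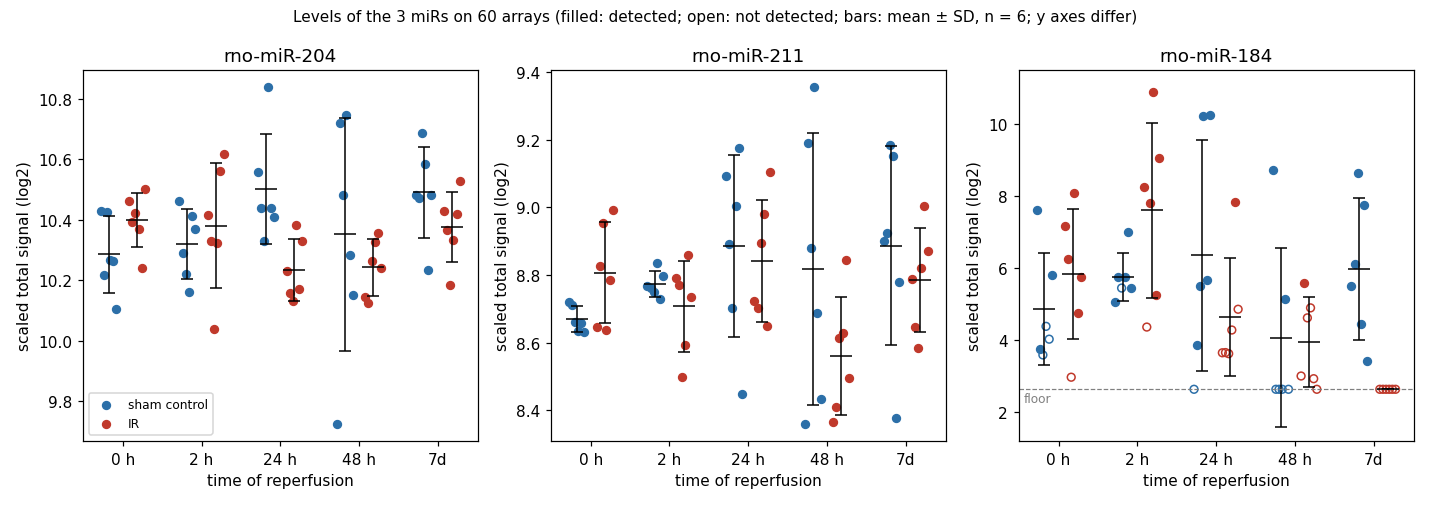
Scaled total signal (log2) of each miR on each of the 60 arrays by time of reperfusion, with sham control in blue and IR in red, filled points where the miR was detected and open points where it was not, and bars for the mean ± SD of 6 arrays. Rno-miR-204 and rno-miR-211 stay within about 1 log2 unit over all arrays, whereas rno-miR-184 spreads from the floor at 2.63 to 10.87 and lies at the floor on all 6 IR arrays of 7d.

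In the sham control rats, the level of rno-miR-204 had a lowest, median and highest value of 10.10, 10.27 and 10.43 at 0 h, of 10.16, 10.33 and 10.46 at 2 h, and of 10.33, 10.44 and 10.84 at 24 h. At 48 h these values were 9.72, 10.38 and 10.75, and at 7d they were 10.23, 10.48 and 10.69. The sham control group of 48 h was thus the widest, with an SD of 0.39, and it held the lowest value of all 60 arrays. In IR, the values of rno-miR-204 were 10.24, 10.41 and 10.50 at 0 h, 10.04, 10.37 and 10.62 at 2 h, and 10.13, 10.20 and 10.38 at 24 h. They were 10.13, 10.25 and 10.36 at 48 h and 10.18, 10.39 and 10.53 at 7d. IR and sham control arrays overlapped at every time. Ordered by group mean, rno-miR-204 ran from sham control at 24 h (10.50 ± 0.18, SD, n = 6) to IR at 24 h (10.23 ± 0.10, SD, n = 6). No 2 neighbors in this order differed by more than the larger of their SDs.

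The difference of IR minus sham control in rno-miR-204 was 0.11 at 0 h (95% confidence interval -0.10 to 0.32, adjusted p = 0.543 by limma) and 0.06 at 2 h (-0.15 to 0.27, adjusted p = 0.902 by limma). Of the 159 tested miRs, 12.6% passed the adjusted p and 6.92% were called at 0 h, and 7.55% and 5.03% at 2 h. At 24 h, rno-miR-204 was lower in IR by a log2 difference of -0.27 (SE 0.10, 95% confidence interval -0.48 to -0.06, adjusted p = 0.0264 by limma), a ratio of 0.83. At that time 5 of the 6 IR arrays lay below all sham control arrays, and the exact two-sided permutation test gave p = 0.00433. The change stayed under the 2-fold threshold, so rno-miR-204 was not called. Of all tested miRs, 60.4% passed the adjusted p alone at 24 h and 18.2% were called with the fold threshold as well, and the median log2 difference of the 159 miRs was -0.13. The 24 h difference of rno-miR-204 was -0.30, -0.31 and -0.08 within the 3 scans, the last from 1 array of each treatment. Without sham control rat 4 of 24 h, the highest array of all groups, it was -0.20 (adjusted p = 0.0988 by limma), and without IR rat 3 the adjusted p was 0.0551. With the slide as a block the 24 h difference was -0.12 (adjusted p = 0.635 by limma), with the slide as a random block -0.23 (adjusted p = 0.0705 by limma) and with array brightness as a covariate -0.23 (adjusted p = 0.294 by limma). It was -0.58 with the percentile over all miRs and -0.62 in the authors' table, where the median of all tested miRs was -0.42 and -0.34. At 48 h and 7d the differences of rno-miR-204 were -0.11 (-0.32 to 0.10, adjusted p = 0.408 by limma) and -0.11 (-0.32 to 0.09, adjusted p = 0.347 by limma). At these times 54.7% and 59.7% of the tested miRs passed the adjusted p and 13.8% and 18.2% were called. Leaving out each array of 48 h in turn gave differences from -0.23 without sham control rat 1, the lowest array (adjusted p = 0.0281 by limma), to -0.03 without sham control rat 4 (adjusted p = 0.832 by limma).

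Rno-miR-211 in the sham control rats had a lowest, median and highest value of 8.63, 8.66 and 8.72 at 0 h, 8.73, 8.76 and 8.83 at 2 h, and 8.45, 8.95 and 9.18 at 24 h. They were 8.36, 8.78 and 9.36 at 48 h and 8.38, 8.91 and 9.18 at 7d. The sham control arrays of 0 h and 2 h lay close together, with an SD of 0.04 each, and those of 48 h lay widest, with an SD of 0.40. In IR, rno-miR-211 had values of 8.64, 8.81 and 8.99 at 0 h, 8.50, 8.75 and 8.86 at 2 h, and 8.65, 8.81 and 9.10 at 24 h. They were 8.37, 8.56 and 8.84 at 48 h and 8.58, 8.80 and 9.005 at 7d. The 2 treatments overlapped at every time. By group mean the order ran from sham control at 7d (8.89 ± 0.29, SD, n = 6) to IR at 48 h (8.56 ± 0.17, SD, n = 6), again with no neighbors further apart than the larger of their SDs.

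No difference of rno-miR-211 passed the adjusted p with the scaling used here. Its IR minus sham control difference was 0.14 at 0 h (-0.11 to 0.38, adjusted p = 0.543 by limma), -0.07 at 2 h (-0.31 to 0.18, adjusted p = 0.914 by limma) and -0.04 at 24 h (-0.29 to 0.20, adjusted p = 0.764 by limma). At 48 h it was -0.26 (-0.51 to -0.01, adjusted p = 0.0710 by limma), 5 of the 6 IR signals being under the sham control mean, and at 7d it was -0.10 (-0.35 to 0.15, adjusted p = 0.488 by limma). The intervals of both miRs at all 5 times lay inside a 2-fold change in either direction. Leaving out each array of 48 h in turn gave differences of rno-miR-211 from -0.35 without sham control rat 1 (adjusted p = 0.0129 by limma) to -0.15 without sham control rat 4 (adjusted p = 0.320 by limma). The adjusted p also passed without sham control rat 6 (0.0245) and without IR rat 5 (0.0325). With arrays scaled to the percentile over all miRs, rno-miR-211 passed the adjusted p at 24 h (-0.36, adjusted p = 0.0376 by limma) and 48 h (-0.41, adjusted p = 0.0204 by limma), where the median of all tested miRs was -0.42 and -0.29. In the authors' table it passed at 24 h (-0.40, adjusted p = 0.0241 by limma), 48 h (-0.39, adjusted p = 0.0340 by limma) and 7d (-0.35, adjusted p = 0.0479 by limma), where the median was -0.34, -0.24 and -0.37. None of these reached 2-fold. Within the 3 scans the 48 h difference was -0.39, -0.50 and 0.11.

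**Figure D2:**
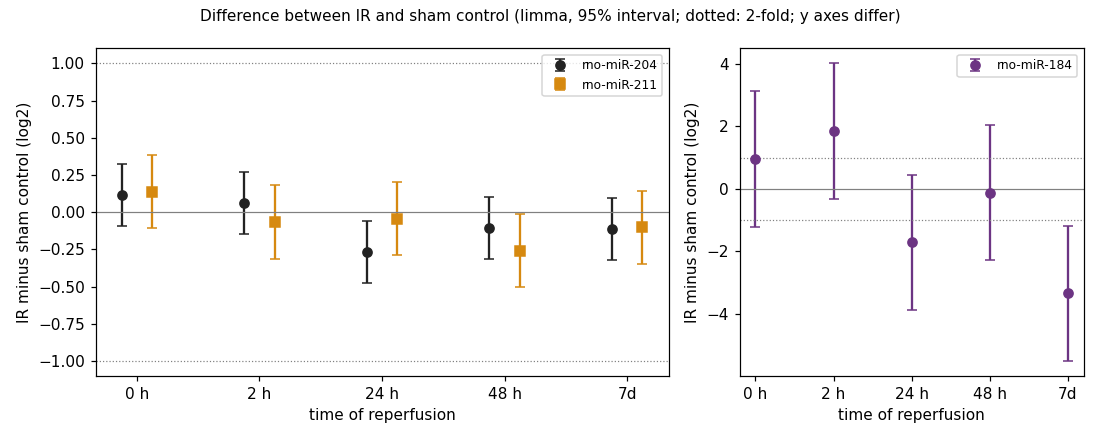
IR minus sham control (log2) at each time of reperfusion, as the limma estimate with its 95% confidence interval, for rno-miR-204 and rno-miR-211 on the left and rno-miR-184 on the right, with dotted lines at a 2-fold change. The intervals of the first 2 miRs lie inside the dotted lines at every time, and that of rno-miR-184 excludes 0 at 7d, where it runs from -5.51 to -1.17.

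Rno-miR-184 differed widely among rats of the same group. In sham control it had a lowest, median and highest value of 3.59, 4.20 and 7.61 at 0 h, with 3 of 6 arrays detecting it, and of 5.05, 5.60 and 7.01 at 2 h, with 5 of 6. At 24 h the sham control values were 2.63, 5.58 and 10.25, and rats 4 and 6 (10.22 and 10.25) stood far above the other 4. At 48 h they were 2.63, 2.63 and 8.72, with 4 of 6 arrays at the floor, and at 7d they were 3.41, 5.81 and 8.62, with detection on 6 of 6.

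In IR, rno-miR-184 had a lowest, median and highest value of 2.97, 6.00 and 8.07 at 0 h and of 4.36, 8.02 and 10.87 at 2 h, with detection on 5 of 6 arrays at each of these times. Its values were lower at the later times, with 3.62, 3.96 and 7.82 at 24 h and 2.63, 3.81 and 5.58 at 48 h, where 1 of 6 arrays detected it at each time. The detection limits of these arrays were 3.89 to 5.36 at 24 h and 2.30 to 4.08 at 48 h. The size of the fall from 2 h was thus not measured. At 7d all 6 IR arrays lay at the floor and none detected rno-miR-184. Before scaling, the total signals of these 6 arrays ran from -4.17 to 0.60 signal units, against 29.6 to 808.8 on the sham control arrays of 7d. Those sham control arrays were brighter, and after scaling their signals ran from 10.6 to 394.1. Ordered by group mean, rno-miR-184 ran from IR at 2 h (7.60 ± 2.42, SD, n = 6) to IR at 7d (2.63 on all 6 arrays). Among the other 9 groups, no neighbors in this order differed by more than the larger of their SDs. The last step, from IR at 48 h (3.94 ± 1.24, SD, n = 6, detected on 1 of 6 arrays) to IR at 7d, was not measured, since the detection limits of the IR arrays of 7d had a mean of 4.86.

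For rno-miR-184, the IR minus sham control difference was 0.96 at 0 h (SE 1.08, 95% confidence interval -1.20 to 3.13, adjusted p = 0.668 by limma) and 1.85 at 2 h (-0.31 to 4.02, adjusted p = 0.488 by limma). It was -1.71 at 24 h (-3.88 to 0.46, adjusted p = 0.161 by limma) and -0.12 at 48 h (-2.29 to 2.05, adjusted p = 0.923 by limma). These intervals are wide enough to hold changes of more than 2-fold in both directions at 0 h and 48 h. Leaving out 1 array at a time, the difference ran from 0.51 (without IR rat 4) to 1.53 (without IR rat 3) at 0 h and from 1.198 (without IR rat 4) to 2.50 (without IR rat 2) at 2 h. Without sham control rat 6 of 24 h the 24 h difference was -0.93, and without sham control rat 1 of 24 h it was -2.45.

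At 7d, rno-miR-184 was called lower in IR. It met the rule for testing only through the sham control group of 7d, the sole group that detected it on all 6 arrays and the higher side of this comparison, so its selection favored a difference in this direction. Its log2 difference was -3.34 (SE 1.08, 95% confidence interval -5.51 to -1.17, adjusted p = 0.00713 by limma), with all 6 IR arrays below all 6 sham control arrays. With no filter on detection, over all miRs with any spread, the adjusted p was 0.00930 by limma. The exact two-sided permutation test gave p = 0.00216, the smallest that 6 arrays against 6 allow. Of the 159 tested miRs, 10.7% were called lower at 7d, and 26.4% had every IR array below every sham control array. Within the 3 scans the difference was -3.18, -3.90 and -2.95, and it stayed between -3.85 and -2.81 when each array of 7d was left out in turn. All IR values of 7d are the floor, so these differences follow the sham control signals alone and could not be positive. Since no IR array detected the miR, the size of the fall was not measured. With each IR array set to its detection limit (3.16 to 6.50), the IR mean was 2.17-fold lower. The means were 5.97 ± 1.97 in sham control and 4.86 ± 1.22 for the limits (SD, n = 6 each). The exact two-sided permutation test of signals against limits gave p = 0.268. The limits are not strict, since sham control rat 3 of 2 h did not detect rno-miR-184 at 5.44, above its limit of 3.17. Of the 6 sham control signals, 2 lay above the highest of these limits.

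The 7d call was lost under some settings. With array brightness as a covariate the difference was -1.58 (adjusted p = 0.568 by limma), with the slide as a block it was -3.43 (adjusted p = 0.102 by limma), and with normexp background correction it was 0.44 (adjusted p = 0.502 by limma). With normexp the median difference of all tested miRs at 7d was 1.15, above that of rno-miR-184. No slide held both treatments of the same time, so within a time slide and treatment cannot be told apart. The 4 leukocyte miRs were rno-miR-142-3p, rno-miR-142-5p, rno-miR-223 and rno-miR-150. Their summed log2 signal at 7d was 5.55 to 6.69 in IR and 4.84 to 5.45 in sham control. The first 2 of them were detected on no array, rno-miR-223 on 16 and rno-miR-150 on 23 of the 60. Detection limits at 7d were 3.16 to 6.50 in IR and -0.92 to 2.54 in sham control. How much background entered this sum was not tested. Of the 159 tested miRs, 24 had IR signals at 7d that all exceeded the highest sham control signal. The summed log2 signal of the 4 skeletal muscle miRs (rno-miR-1, rno-miR-133a, rno-miR-133b and rno-miR-206) was 6.83 to 7.48 in IR against 5.81 to 6.41 in sham control at 7d. Of these 4, rno-miR-133a and rno-miR-133b lay at the floor on all 60 arrays and rno-miR-1 was detected on 11, so the sum is mainly that of rno-miR-206. The brightness of IR and sham control arrays did not overlap at 7d. In the rno-miR-184 difference the parts of brightness and treatment thus cannot be told apart. The part of either cell type was not tested.

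**Figure D3:**
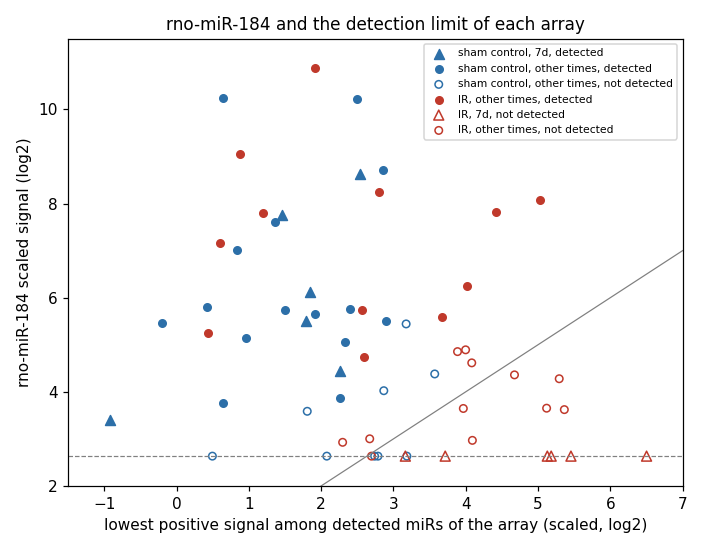
Scaled signal of rno-miR-184 (log2) on each array against the detection limit of that array (log2), with sham control in blue, IR in red, triangles for 7d, circles for the other times, open points where the miR was not detected, a diagonal for equal values and a dashed line at the floor. The 6 IR arrays of 7d have limits of 3.16 to 6.50 and lie at the floor, and the 6 sham control arrays of 7d lie above the diagonal.

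The change of the IR effect over the 5 times was tested with an F test. For rno-miR-184 the IR minus sham control difference varied among the times (adjusted p = 0.0288 by limma), as it did for 39% of the 159 tested miRs. Rno-miR-184 met the rule for testing only through the sham control group of 7d, which enters this test, so its selection favored such variation. The adjusted p was 0.0594 without sham control rat 3 of 7d, 0.0556 without sham control rat 5 of 7d and 0.0512 without IR rat 4 of 2 h. For rno-miR-204 and rno-miR-211 the same test did not pass (adjusted p = 0.156 and 0.369 by limma). Without sham control rat 1 of 48 h, that of rno-miR-204 was 0.0272. Among the sham control groups alone, the F test over time passed for none of the 3 miRs (adjusted p = 0.361 for rno-miR-204, 0.626 for rno-miR-211 and 0.475 for rno-miR-184 by limma), and for 5.66% of the tested miRs. The sham control means of rno-miR-184 ran from 4.06 at 48 h to 6.36 at 24 h, so a steady level was not shown.

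The spread between rats of the same group set rno-miR-184 apart in these data. Its SD within groups over the 60 arrays was 1.91 on the log2 scale, rank 159 of 159 and so the largest among the tested miRs, whose median was 0.27. That of rno-miR-204 was 0.18, rank 39 of 159, and that of rno-miR-211 was 0.21, rank 60 of 159. Among the 57 miRs detected on all arrays, these 2 ranked 32 and 43 from the lowest, both above the median SD of 0.17. The order of the 3 miRs follows the group SDs, which ran from 0.09 to 0.39 for rno-miR-204, from 0.04 to 0.40 for rno-miR-211 and from 0 to 3.21 for rno-miR-184.

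**Figure D4:**
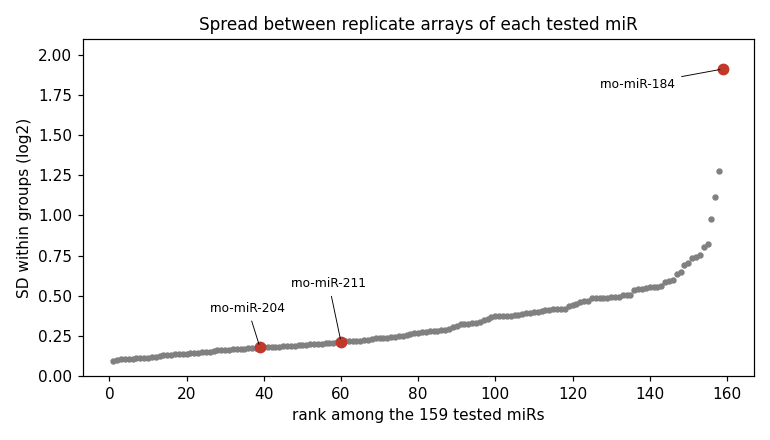
SD within groups (log2) of each of the 159 tested miRs against its rank, with the 3 miRs in red. Rno-miR-184 holds the highest rank with 1.91, and rno-miR-204 and rno-miR-211 lie at 0.18 and 0.21.

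Rno-miR-204 and rno-miR-211 varied together over the arrays. Pearson's r was 0.71 and Spearman's rho 0.69 over the 60 arrays (permutation p = 1e-05, the smallest that 100000 resamples can give, adjusted p = 0.000673 and 0.000785 over 471 relations of the 3 miRs with the tested miRs). Pearson's r was 0.70 without the 2 arrays farthest from the median of rno-miR-204 and 0.73 after the group means were subtracted. It was 0.54 over the IR arrays and 0.78 over the sham control arrays, and 0.82, 0.76 and 0.52 within the 3 scans. The nearly identical probes and the shared scaling of each array enter this relation, and without normalization between arrays r was 0.99. Rno-miR-184 had no relation with either of them that passed the test, with r = 0.01 and rho = -0.03 against rno-miR-204 (permutation adjusted p = 0.983 and 0.896) and r = -0.22 and rho = -0.20 against rno-miR-211 (permutation adjusted p = 0.226 and 0.262). After the group means were subtracted r was -0.18 against rno-miR-204 and -0.39 against rno-miR-211. Without the 2 farthest arrays the r values were 0.00 and -0.14, and over the 33 arrays that detect both miRs they were 0.05 and -0.30. Within the 3 scans r was -0.31, 0.16 and 0.19 against rno-miR-204 and -0.32, -0.14 and -0.31 against rno-miR-211.

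**Figure D5:**
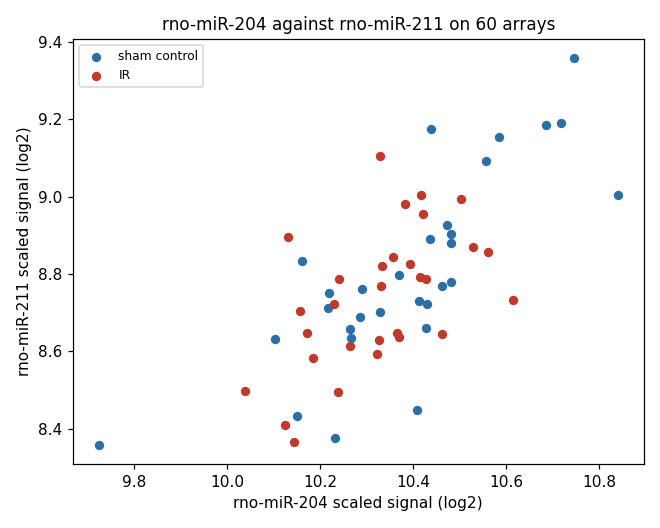
Scaled signal of rno-miR-211 against that of rno-miR-204 (both log2) on the 60 arrays, with sham control in blue and IR in red. The points rise together (r = 0.71), in sham control (r = 0.78) as in IR (r = 0.54).

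With the brightness of the arrays before scaling, rno-miR-184 had r = 0.35 and rho = 0.32 over the 60 arrays (permutation p = 0.00603 and 0.0128, adjusted p = 0.0181 and 0.0383 over the 3 miRs). That r was 0.34 without the 2 arrays farthest from the median of rno-miR-184 and 0.20 after the group means were subtracted. It was 0.59 over the IR arrays and 0.01 over the sham control arrays, and 0.44, 0.33 and 0.37 within the 3 scans. For rno-miR-204 and rno-miR-211 the r with brightness was 0.23 and 0.03 (permutation adjusted p = 0.123 and 0.842).

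Among the other 158 tested miRs, the patterns most like rno-miR-204 over the 60 arrays were those of rno-let-7a (r = 0.74), rno-miR-211 (r = 0.71) and rno-miR-9 (r = 0.67). Those most like rno-miR-211 were rno-miR-204 (r = 0.71), rno-let-7a (r = 0.60) and rno-miR-9 (r = 0.57). Nearest to rno-miR-184 were rno-miR-181c (r = 0.50), rno-miR-320 (r = 0.49) and rno-miR-30a (r = 0.48). All points share the scaling of their array, and these r are given as a description.

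The 2 probes of rno-miR-204 gave IR minus sham control differences of -0.30 and -0.22 at 24 h, both negative. The 3 probes of rno-miR-211 differed in direction at 24 h, with 0.23 for the probe of 19 bases and -0.07 and -0.12 for those of 20 and 21 bases, and were all negative at 48 h, from -0.30 to -0.20. The 2 probes of rno-miR-184 gave 0.96 and 1.03 at 0 h and 1.90 and 1.82 at 2 h.

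The other strand of the rno-miR-204 hairpin, rno-miR-204* (the 3p arm), lay near the floor. It was detected on 25 of 60 arrays, 5 of IR and 20 of sham control, and its highest value was 3.67. No IR array of 24 h, 48 h or 7d detected it, against 4, 5 and 6 of the 6 sham control arrays of these times, which were brighter. Its differences of -0.09 at 24 h, -0.23 at 48 h and -0.19 at 7d did not pass the test (adjusted p = 0.444, 0.052 and 0.115 by limma).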

How the data were processed

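Per the labels and file headers, 100 ng of Cy3-labeled total RNA per rat was hybridized to 1-color Agilent rat miR arrays, on 9 slides scanned in 3 sessions, each with as many arrays of one treatment as of the other. The authors extracted spot intensities with Agilent Feature Extraction 9.5.3.1, which subtracts background and sums the probes of a miR to a total signal. These deposited intensities were not normalized between arrays. A deposited table of the authors' log2 values, scaled per array, was an alternative (210 rat miRs, column medians -0.89 to -0.46). Its values are the log2 total signal (minimum 1 unit) less 1 constant for each array.

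Signals were divided by a factor that brought each array's 75th percentile of the 57 miRs found on every array to a common value, raised to 6.20 signal units where lower (the median of the arrays' lowest detected signals) and taken to log2. One limma 3.58.1 fit in R 4.3.3 held all 60 arrays and 10 groups. A miR was called at a 2-fold change and a Benjamini-Hochberg adjusted p of 0.05 over 159 tested miRs. The fit was tested on simulated data that had no floor and smaller SDs than that of rno-miR-184. That test thus does not bear on the call of rno-miR-184. The detection limit of an array was its lowest detected positive signal. Correlations used two-sided permutation tests in Python 3.11.15. Probe differences used scaled sums of the spots of a probe.

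The named miRs were the 3 members, the opposite strand on the array, marker and epithelial lists, and for each member the 3 tested miRs with the highest r. The members and lists were chosen with earlier results of these data known. Each rat gave 1 array, no 2 arrays were identical, and the number of arrays limits precision. Alternatives covered background, probe summary, scaling, floor, filter, arrays fitted, replicate number, slide and scan blocks, brightness, prior, test, the authors' table and leaving out each array.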

Additional observations from a re-analysis of the deposited data

Results flagged for a closer look

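Outlying arrays were looked for in the 29 groups of 6 arrays with any spread, and chance alone would mark about 1 in 20 groups. In 2 of them an array of rno-miR-184 stood apart. IR rat 5 of 24 h had 7.82 against 3.62 to 4.85 on the other 5 arrays, and sham control rat 5 of 2 h had 7.01 against 5.05 to 5.76.

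The IR minus sham control difference of rno-miR-184 differed among the 5 times (adjusted p = 0.0288 by the limma F test), from 1.85 at 2 h to -3.34 at 7d. Its selection for testing through the sham control group of 7d favored such variation.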

How the results depend on the processing

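The replicate numbers of the labels do not pair the rats. Of 30 same-numbered pairs, 15 had a correlation of deviations over 0.1 (-0.45 to 0.60, median 0.11). With the replicate number as a block, rno-miR-184 differed by -3.34 at 7d (adjusted p = 0.00766 by limma), and no call of the 3 miRs changed.

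The call of rno-miR-184 at 7d was lost when the floor was set to the highest detection limit (-0.56, adjusted p = 0.438), the slide as a block (-3.43), brightness as a covariate (-1.58) and normexp (0.44, reversed), and kept in the other 13 of 17 alternatives. Of these 13, the replicate block, scan block, prior and exact test left all IR arrays of 7d at the same floor. Rno-miR-184 has no value with only the miRs detected on all arrays. Its F test over time had adjusted p of 0.0568, 0.0685, 0.580 and 0.762 in the same order. Its small 48 h difference turned positive with spot means (0.28), normexp (0.94), a floor of 1 (0.43), the slide as a block (0.74) or random block (0.28, added after the data were seen), brightness (0.69) and the authors' table (0.38). With normexp the median of all tested miRs was 0.68, 0.02, 0.87, 0.84 and 1.15 from 0 h to 7d in order.

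Without normalization between arrays, rno-miR-204 was -0.95 at 0 h and was called at 24 h (-2.42), 48 h (-1.302) and 7d (-2.70), rno-miR-211 was -0.92 at 0 h and was called at 24 h (-2.20), 48 h (-1.45) and 7d (-2.68), and rno-miR-184 was called at 24 h (-3.61). The median of all tested miRs then lay between -2.54 and 0.03 over the 5 times. The F tests over time of rno-miR-204 and rno-miR-211 then had adjusted p of 2.67e-06 and 9.62e-06. Differences near 0 changed sign at 0 h in rno-miR-204 (normexp -0.15, percentile over all miRs -0.21, authors' table -0.20) and rno-miR-211 (-0.18 with that percentile, -0.17 with that table). They also did in rno-miR-204 at 2 h (normexp -0.021) and 7d (slide 0.0033), and in rno-miR-211 at 24 h (spot means 0.0036, normexp 0.085, slide 0.21, random slide 0.022) and 7d (normexp 0.16, slide 0.14).

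The r of rno-miR-184 with rno-miR-204 was -0.17 with quantile normalization, 0.53 without normalization and -0.039 with a floor of 1. With rno-miR-211 it was -0.33 (adjusted p = 0.037) with quantile normalization and 0.49 without. The cause was not tested for any of these.

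Leaving out 1 array at a time gave ranges of -0.13 to 0.015 for rno-miR-211 at 24 h, -0.45 to 0.81 for rno-miR-184 at 48 h and -0.11 to 0.12 for r of rno-miR-204 with rno-miR-184. The adjusted p of the F test over time ran from 0.0272 to 0.263 for rno-miR-204 and from 0.0111 to 0.0594 for rno-miR-184.

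The number of miRs called, from 0 h to 7d in order, was 11, 8, 29, 22 and 29. It was 34, 2, 60, 63 and 95 with normexp, 84, 5, 139, 121 and 151 without normalization, 3, 3, 8, 5 and 6 when the highest detection limit was the floor, and 2, 2, 6, 4 and 4 with miRs detected on all arrays. It moved to 48 at 7d with spot means, to 34 at 48 h with a floor of 1, to 13 at 2 h and 45 at 24 h with no filter, to 5 at 0 h with the 2 groups alone, to 7 at 0 h and 4 at 2 h with the slide as a block, and to 14 at 24 h and 5 at 7d with brightness. The authors' table gave counts of 25, 68, 48 and 70 at the times other than 2 h, and exact permutation tests gave 3 at 0 h and 0 at 2 h.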
